A study of Mus musculus with 6 samples.

Results

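The mitochondrial ribosomal protein genes of the deposited gene table were examined, taken as every row whose symbol begins with Mrpl or Mrps followed by a digit. They were 76 of 17173 genes, 47 with large subunit symbols (Mrpl) and 29 with small subunit symbols (Mrps). No measured value entered this choice. RNA of mouse bone marrow, per the labels from a model of multiple myeloma, a plasma cell cancer, was sequenced in 6 libraries. All 6 carried the source label VkCHE mice. In 3 the genotype was given as control (titles Control) and in 3 as Che-1 silencing (titles vkche). That title repeats the source label of all 6, so whether the groups differ in silencing or in the model itself cannot be told from the labels. Strain, transgenes, promoter, age, sex, how silencing was done and whether replicates came from separate mice were not given in the sources used here. The p-values below therefore measure spread among these libraries that may be technical.

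Mitochondria carry their own ribosome, which translates the few proteins encoded by mitochondrial DNA, all of them subunits of the respiratory chain and ATP synthase. Its RNA comes from mitochondrial DNA, but every protein of it is encoded in the nucleus, made in the cytosol and imported. Many of these proteins descend from bacterial ribosomal proteins, and others were added during mitochondrial evolution and have no bacterial counterpart. The large subunit joins amino acids at the peptidyl transferase centre and passes the chain through an exit tunnel. The small subunit binds the messenger RNA and decodes it.

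The symbols do not follow the structure throughout. The proteins of Mrps18a and Mrps30 sit in the large subunit, and the product of Mrps36 is a subunit of the oxoglutarate dehydrogenase complex and no ribosomal protein. Placed by structure, 49 genes belonged to the large and 26 to the small subunit. All 76 genes passed the minimum mean of 10 normalized counts over the 6 libraries and were tested.

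Promoters of these genes are shown as a description. Of the 76, 67 matched RefSeq windows running from 250 bases before to 50 after the gene's start (build GRCm38.p6, 73 windows, 3 genes with several), and Mrpl4, Mrpl13, Mrpl15, Mrpl19, Mrpl38, Mrpl54, Mrps28, Mrps34 and Mrps35 had none. The 250 bases before the start are printed 5′ to 3′ on the gene's strand, with motif matches on either strand in capitals. Mrpl12 (chr11:120484387-120484636, plus strand) carried an NRF1 motif and Mrpl43 (chr19:45006443-45006692, minus strand) a pair of ETS motifs. Mrpl36 (chr13:73330759-73331008, plus strand) carried a YY1 motif, read on the opposite strand. Mrpl42 (chr10:95501950-95502199, minus strand) and Mrpl24 (chr3:87919294-87919543, plus strand) both carried a ZNF143 motif, and lay near opposite ends of the range of relative differences given below.
Mrpl12: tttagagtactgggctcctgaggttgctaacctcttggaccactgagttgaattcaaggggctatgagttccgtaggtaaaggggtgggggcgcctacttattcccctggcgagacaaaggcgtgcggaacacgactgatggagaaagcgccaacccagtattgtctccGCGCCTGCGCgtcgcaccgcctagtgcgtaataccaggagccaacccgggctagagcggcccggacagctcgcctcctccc
Mrpl43: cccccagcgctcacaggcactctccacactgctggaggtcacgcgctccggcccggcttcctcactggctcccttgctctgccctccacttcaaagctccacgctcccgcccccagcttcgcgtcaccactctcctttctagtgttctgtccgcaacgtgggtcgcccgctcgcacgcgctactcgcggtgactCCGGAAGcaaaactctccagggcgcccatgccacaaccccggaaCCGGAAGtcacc
Mrpl36: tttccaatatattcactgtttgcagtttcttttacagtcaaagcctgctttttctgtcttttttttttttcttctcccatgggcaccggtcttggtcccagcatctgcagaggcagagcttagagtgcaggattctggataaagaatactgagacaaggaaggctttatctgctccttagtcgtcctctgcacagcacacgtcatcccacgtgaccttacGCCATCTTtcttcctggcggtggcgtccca
Mrpl42: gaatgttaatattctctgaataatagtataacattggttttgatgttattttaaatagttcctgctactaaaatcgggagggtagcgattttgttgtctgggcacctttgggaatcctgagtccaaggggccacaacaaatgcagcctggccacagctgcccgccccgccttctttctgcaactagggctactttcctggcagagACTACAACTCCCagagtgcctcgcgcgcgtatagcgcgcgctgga
Mrpl24: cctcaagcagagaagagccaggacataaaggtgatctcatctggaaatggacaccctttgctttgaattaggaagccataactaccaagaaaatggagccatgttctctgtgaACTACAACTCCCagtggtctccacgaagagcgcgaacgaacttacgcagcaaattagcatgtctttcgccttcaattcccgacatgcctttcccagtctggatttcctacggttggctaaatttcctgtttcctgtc

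NRF1 (nuclear respiratory factor), the ETS family member GABP and YY1 are known regulators of nuclear genes for mitochondrial proteins. The NRF1 motif searched was GCGC, any base and TGCGC, the ETS motif CCGGAAG, the YY1 motif AAGATGGC and the ZNF143 motif ACTACAA, any base and TCCC. Both strands of the whole 300-base window were searched, and the last 3 letters of the ETS motif are also the first 3 of the YY1 motif, so matches to the pair can overlap. The NRF1 motif was in 16.4% of the 73 windows, against 4.60% of all 32851 promoter windows. The ETS motif was in 32.9% against 8.86%, the YY1 motif in 16.4% against 2.75%, and the ZNF143 motif in 5.48% against 0.95%. At least 1 of the 4 was present in 58.9% of the windows, against 15.3% of all windows. The letters TATAAA were in 6.85% against 13.6%. These matches describe the sequence and say nothing of binding in these cells. The 32851 windows were not limited to the genes tested here.

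Whole-series values bear on every comparison below. Recovered gene reads ran from 11317166 to 17809057 in the control libraries and from 14373200 to 24899535 in the silencing-labelled libraries. Spike-in reads, counted from synthetic RNAs added to each library, ran from 471796 to 1149392 and from 228087 to 445186. Aatf, the gene of Che-1, was not lower in the silencing-labelled libraries on the scale set by the spike-ins. Control replicates 1, 2 and 3 had 896, 396 and 421 normalized counts of it, and Che-1 silencing replicates 1, 2 and 3 had 1986, 3808 and 1223, so that the groups did not overlap. The log2 difference was 1.98 on the spike-in scale (SE 0.57, limma adjusted p = 0.0021). Leaving out control replicate 2 or 3 ended that call, at limma adjusted p-values of 0.0568 and 0.0576. On the same scale the median log2 difference over all genes tested was 1.54. The silencing-labelled libraries lay above without overlap in 68.0% of all genes tested, so most genes shared the direction of Aatf. The level of Aatf relative to each library's median gene is not reported here. No loss of Aatf was measured, and every difference below is between libraries so labelled, not a measured effect of silencing. Ddx3y, a Y-linked helicase gene, was read in the 3 control libraries, and its count was 0 in every silencing-labelled library, so group and sex cannot be told apart. Control replicate 1 and Che-1 silencing replicate 3 stood apart from the other libraries of their groups, and the main counts and largest differences below are given with and without them.

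Per unit of spike-in RNA, every mitochondrial ribosomal protein gene was more abundant in the silencing-labelled libraries. All 76 rose on the spike-in scale, which is the authors' scaling of gene counts by size factors from 70 spike-ins and 2 summary rows of the spike-in table (limma on log2(normalized count + 1), adjusted p of at most 0.05). Of all 14604 genes tested, 66.7% rose. The limma adjusted p-values of the 76 ran from 1.6e-05 to 0.0149. The median log2 difference was 2.04, against 1.54 over all genes tested, and it ran from 1.49 for Mrps25 to 2.83 for Mrps7. In each of the 76 genes the 3 silencing-labelled libraries exceeded the 3 control libraries, as they did in 68.0% of all genes tested, and the mean log2 level was higher there in 93.9% of all genes. In the authors' deposited table the median ratio of group means was 4.33 over the 76 genes and 2.94 over the 16743 genes with a ratio.

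The calls on the spike-in scale rest on a spread shared between genes of like level. With each gene's own spread (limma without moderation) 0 of the 76 passed, as did 0.0% of all genes, and 74 had an unadjusted p under 0.05, against 57.8% of all genes. All 76 rose by edgeR and by DESeq2, when 69.0% and 72.5% of all genes rose, and also without Che-1 silencing replicate 3 (75.6%) or control replicate 1 (66.5%). The count fell to 46 without control replicate 2, when 22.0% of all genes rose, to 51 without control replicate 3, when 24.1% rose, and to 49 with control libraries 2 and 3, which were most alike, summed into 1, when 23.5% rose. It was 69 without Che-1 silencing replicate 1 or 2, when 38.7% and 41.9% of all genes rose. By the authors' deposited table, 66 of the 76 had a p-value under 0.05 and a ratio above 1, against 26.6% of all genes with a p-value, but none of the 76 had an adjusted p-value at or under 0.05 (the range was 0.186 to 0.221, and 0.0773% of all genes passed). Whether the spike-ins were added per cell was not given in the sources used here, and in bulk tissue fewer cells of a type and less RNA per cell cannot be told apart.

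**Figure D1:**
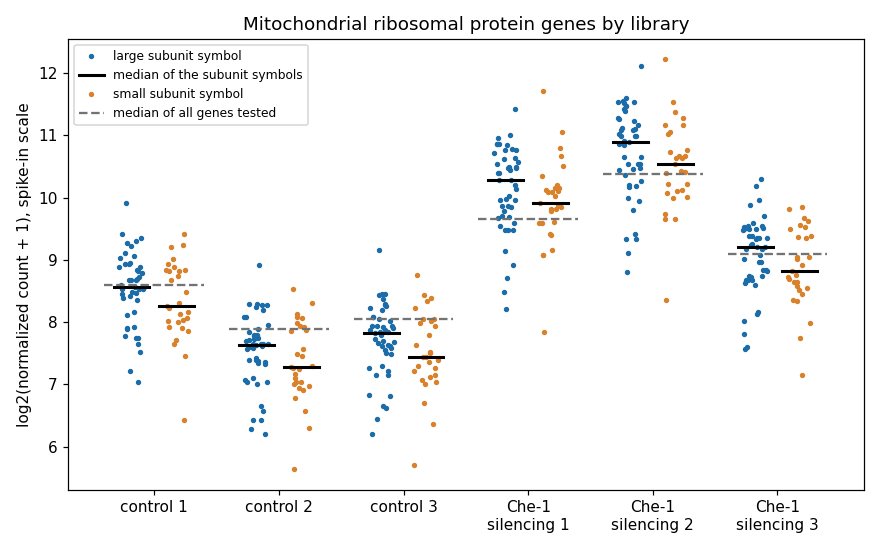
Level of each of the 76 genes in each library, as log2(normalized count + 1) on the spike-in scale; points are genes (blue large, orange small subunit symbols), black bars the median of each subunit's genes and dashed lines the median of all genes tested. Of the 76 genes, 42, 57 and 58 lie below the dashed line in control replicates 1, 2 and 3, and 19, 24 and 40 in Che-1 silencing replicates 1, 2 and 3.

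The genes were therefore also compared with each library's median gene (the relative scale, on which all libraries have the same median log2 level). In control replicates 1, 2 and 3 the median mitochondrial ribosomal protein gene lay at 8.55, 7.58 and 7.69 log2 units on the spike-in scale, and the median of all genes at 8.60, 7.89 and 8.05. In Che-1 silencing replicates 1, 2 and 3 the medians were 10.09, 10.66 and 9.05, against 9.65, 10.38 and 9.10 for all genes. The median of the set was thus below the median gene in the control libraries and in Che-1 silencing replicate 3, and above it in Che-1 silencing replicates 1 and 2. The median gene serves here as a scale shared by the libraries, and since no length enters, these values compare libraries and not the abundance of genes. On it the median of the set was -0.24 ± 0.17 log2 units in the control libraries and 0.22 ± 0.25 in the silencing-labelled ones (SD, n = 3 each).

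On the relative scale none of the 76 genes passed (limma, adjusted p of at most 0.05), and of all genes tested 0.0% were called higher and 0.0274% lower. The lowest limma adjusted p-value among the 76 was 0.0723, for Mrpl54. In place of the median gene, edgeR and DESeq2 used their own scaling of the gene counts. By edgeR the count was also 0, and by DESeq2 it was 28, all higher, when 15.0% of all genes were called higher. At an unadjusted p under 0.05, 39 of the 76 were higher, against 17.8% of all genes tested. The relative log2 difference was above 0 in 75 of the 76, against 50.8% of all genes, with a median of 0.51 (with library totals in place of the median gene, in 67). Its spread was narrow, with an interquartile range of 0.29, against 0.96 over all genes tested. The groups did not overlap, with the silencing-labelled libraries above, in 40 of the 76 genes, against 20.5% of all genes. In 0 of the 76 they lay below, against 19.7%.

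A pair of libraries set how far the relative difference went. Measured from each gene's control mean, the median of the 76 genes was 0.77 and 0.59 in Che-1 silencing replicates 1 and 2 but 0.19 in replicate 3, the same as the 0.19 of control replicate 1. Control replicates 2 and 3 lay at -0.10 and -0.09. Che-1 silencing replicates 1 and 2 both exceeded all control libraries in 65 of the 76 genes, against 38.9% of all genes, and replicate 3 did so in 43, against 33.6%. Without control replicate 1 the groups did not overlap in 70 of the 76, against 30.9%. Without Che-1 silencing replicate 3, 51 of the 76 genes were called higher on the relative scale (limma adjusted p of at most 0.05), when 27.8% of all genes were. Without control replicate 1 the count was 0 (0.178% of all genes) and the median relative difference 0.59.

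**Figure D2:**
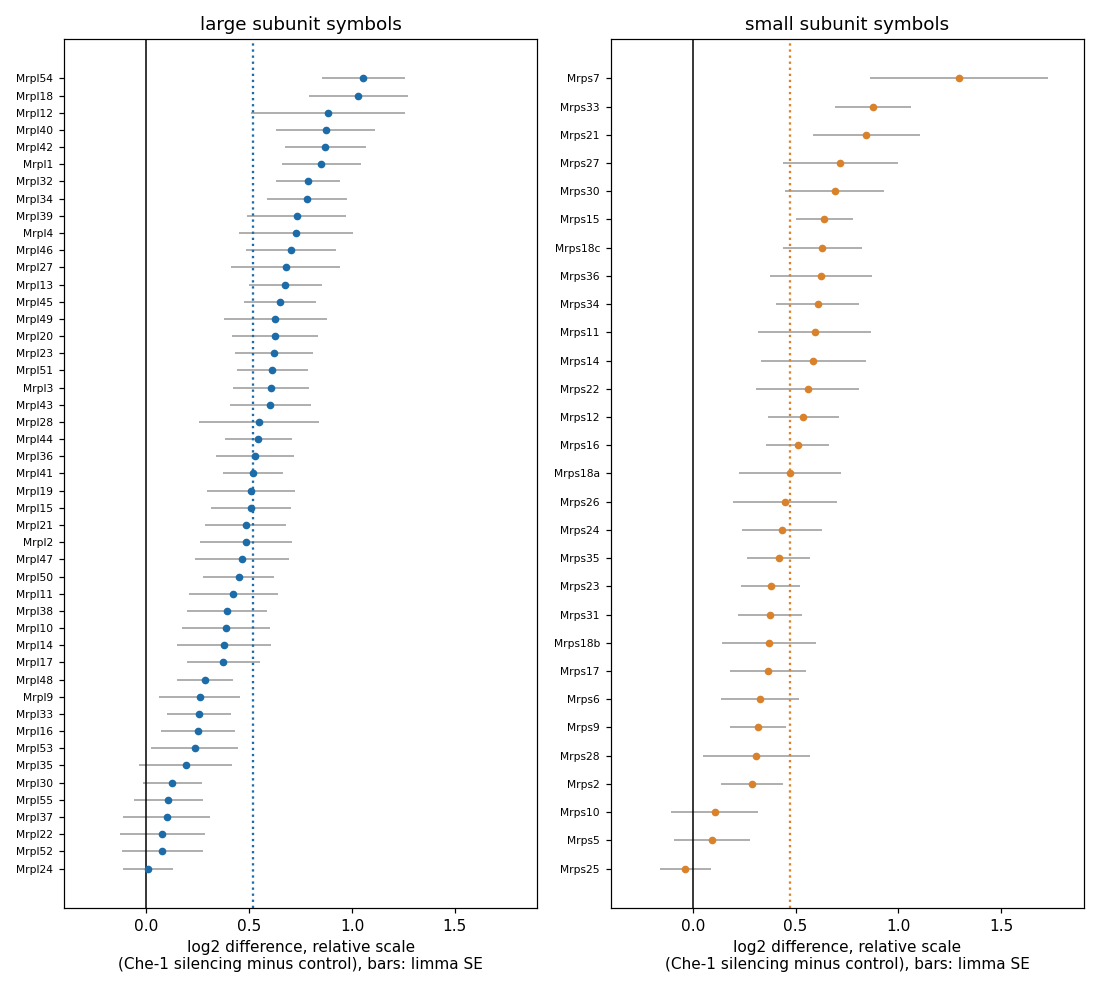
Relative log2 difference, Che-1 silencing minus control, of each large (left) and small (right) subunit symbol; points are limma estimates, bars their SE, dotted lines the median of each panel and the solid line 0. The values run from 0.01 (Mrpl24) to 1.06 (Mrpl54) on the left and from -0.04 (Mrps25) to 1.30 (Mrps7) on the right, with medians of 0.52 and 0.47.

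Markers of several other cell types and of dividing cells also differed between these libraries. The sums are on the spike-in scale, on which the median log2 difference of all genes was 1.54. The 6 germinal centre B cell markers summed to between 951 and 1325 normalized counts in the control libraries and to 73137, 103468 and 3311 in Che-1 silencing replicates 1, 2 and 3. The 16 tested mitosis genes summed to between 6333 and 23754 and to between 22699 and 160158, and from the control mean they stood at 1.67, 1.54 and 0.18 log2 units in Che-1 silencing replicates 1, 2 and 3 and at 0.79 in control replicate 1 on the relative scale. The 4 tested of 7 erythroid markers summed to between 4631 and 20730 and to between 1890 and 8878, and the 7 neutrophil markers to between 4633 and 7262 and to between 1330 and 16452. From the control mean on the relative scale, erythroid markers stood at -3.51, -2.35 and -0.80 in Che-1 silencing replicates 1, 2 and 3. In control replicates 1, 2 and 3 they stood at 1.06, -0.52 and -0.54. Neutrophil markers stood at -3.65, -1.76 and 0.58 in the former and at -0.84, 0.41 and 0.40 in the latter. For 5 of 6 plasma cell markers the sums were 4538 to 5147 and 11518 to 19603, and for 5 of 6 B cell markers 14803 to 29381 and 36847 to 105718, so both lineages were detected in every library. T cell markers (6) summed to between 3424 and 5047 and to between 7312 and 25152, macrophage markers (7 of 8) to between 12983 and 17246 and to between 43719 and 91310, and megakaryocyte markers (5) to between 2862 and 4685 and to between 2228 and 13915. From the control mean on the relative scale, megakaryocyte markers stood at -2.13, -1.18 and 0.79 in Che-1 silencing replicates 1, 2 and 3. The median relative difference was 0.15 for B cell, -0.07 for plasma cell, -0.07 for T cell and 0.53 for macrophage markers. Hbb-b1 was the only defining marker at 0 in a group. The part of these shifts in the values of the mitochondrial ribosomal protein genes was not tested.

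The medians of large and small subunit genes were close. The median log2 difference was 2.048 for the 47 large and 2.005 for the 29 small subunit symbols on the spike-in scale, and 0.52 and 0.47 on the relative scale. The difference between these medians was 0.044 log2 units. Placed by structure it was 0.077, and without Che-1 silencing replicate 3 it was 0.096. A different measure is the gap between the subunits' median levels in each library, not divided by length. That gap was 0.31, 0.37 and 0.39 in control replicates 1, 2 and 3. In Che-1 silencing replicates 1, 2 and 3 it was 0.36, 0.36 and 0.38 (pooled SD 0.031). The 0.044 was not tested against this spread. Per kilobase of transcript, the median level of large subunit symbols exceeded that of small subunit symbols by 0.32, 0.16 and 0.22 log2 units in control replicates 1, 2 and 3 and by 0.33, 0.34 and 0.24 in Che-1 silencing replicates 1, 2 and 3, values that overlapped between the groups. In the authors' deposited table the median ratio was 4.38 for large and 4.23 for small subunit symbols.

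Genes for proteins of bacterial descent and for proteins particular to mitochondria likewise had close relative medians. Of 30 large subunit genes of bacterial type the relative median was 0.50, and of 19 tested of 20 listed large subunit genes of mitochondrial type it was 0.60. In the small subunit the 16 genes of bacterial type had a relative median of 0.47 and the 10 of mitochondrial type 0.43. All of these genes rose on the spike-in scale, as did 66.7% of all genes tested. The silencing-labelled libraries lay above without overlap on the relative scale in 12 of the 30 and 13 of the 19 large subunit genes. In the small subunit they did so in 10 of the 16 and 5 of the 10 genes, against 20.5% of all genes tested.

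Mrps7, whose protein is part of the head of the small subunit near the transfer RNAs, had the largest difference of the 76. Its normalized counts were 455, 267 and 264 in control replicates 1, 2 and 3 and 3368, 4768 and 718 in Che-1 silencing replicates 1, 2 and 3. The groups did not overlap, but replicate 3 lay far nearer to the control libraries than to replicates 1 and 2. On the spike-in scale Mrps7 rose by 2.83 log2 units (SE 0.56, limma adjusted p = 1.6e-05), and relative to the median gene it was 1.30 higher (SE 0.43, limma adjusted p = 0.101). Without Che-1 silencing replicate 3 the relative difference was 1.82 and passed (limma adjusted p = 0.00063), and without control replicate 1 it was 1.35 (limma adjusted p = 0.165). Its exons overlap those of Gga3 (6.13% of exon bases) and Mif4gd (5.74%) on the opposite strand. The kit marks strand, but the strand setting of the counting was not given in the sources used here, so reads of overlapping genes may be mixed.

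Mrpl54, a mitochondrial addition to the large subunit, had 341, 200 and 233 normalized counts in the control libraries and 1742, 2684 and 741 in Che-1 silencing replicates 1, 2 and 3. All 3 of the latter lay above the control range, also relative to the median gene (1.06, SE 0.20, limma adjusted p = 0.0723). Mrpl18, a protein of the central protuberance that is reported to take part in RNA import in human cells, had 679, 307 and 329 normalized counts and 2754, 4446 and 1160. It did not overlap between groups either, with a relative difference of 1.03 (SE 0.24, limma adjusted p = 0.074). Mrpl40, which is also of mitochondrial type, had 407, 193 and 228 normalized counts and 1675, 2449 and 652, again without overlap, and a relative difference of 0.87. Without Che-1 silencing replicate 3 these 3 genes were at 1.27, 1.26 and 1.11 and all passed, and without control replicate 1 they were at 1.06, 1.18 and 0.98 and none passed.

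Mrpl12 belongs to the flexible stalk that recruits translation factors, and its free form is reported to bind mitochondrial RNA polymerase. It had 534, 160 and 191 normalized counts in the control libraries and 1587, 2732 and 575 in Che-1 silencing replicates 1, 2 and 3. Control replicate 1 was high and Che-1 silencing replicate 3 low, so that their values were close. Its relative difference was 0.88 (SE 0.38, limma adjusted p = 0.148), and the groups overlapped on that scale. Mrpl10 and Mrpl11, which anchor the stalk to the large subunit, had relative differences of 0.39 and 0.42, and both overlapped. Without Che-1 silencing replicate 3 the values were 1.20 for Mrpl12, 0.58 for Mrpl10 and 0.59 for Mrpl11, and all 3 passed. Without control replicate 1 Mrpl12 was at 1.21 and no longer overlapped, but did not pass (limma adjusted p = 0.12). Mrpl10 and Mrpl11 were then at 0.36 and 0.57, and neither passed.

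**Figure D3:**
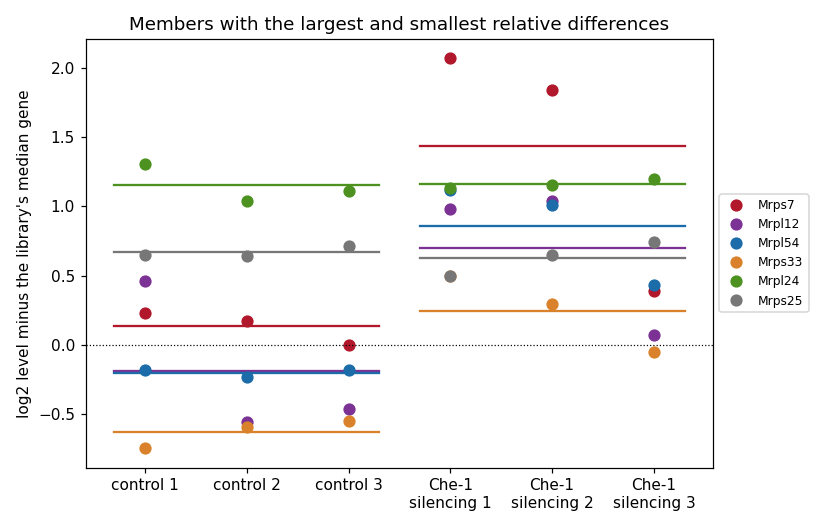
Level of 6 genes in each library, as log2 level minus the library's median gene, with lines at the mean of each group. Mrps7, Mrpl54 and Mrps33 lie higher in all 3 silencing-labelled libraries than in any control library, Mrpl12 overlaps through control replicate 1 and Che-1 silencing replicate 3, and Mrpl24 and Mrps25 stay at the same height.

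Around the peptidyl transferase centre, Mrpl2 and Mrpl3 had relative differences of 0.48 and 0.61, and Mrpl16 and Mrpl27, whose bacterial counterparts contact transfer RNA, had 0.25 and 0.68. Mrpl36, a small protein of bacterial type, had 0.53. Mrpl3 had 614, 313 and 349 normalized counts in the control libraries and 2053, 2982 and 938 in Che-1 silencing replicates 1, 2 and 3, without overlap. The groups overlapped on the relative scale in Mrpl2, Mrpl16 and Mrpl27 and not in Mrpl3 and Mrpl36.

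Mrpl23 and Mrpl45 sit at the mouth of the exit tunnel. Mrpl23 had a relative difference of 0.62 and Mrpl45, which attaches the ribosome to the inner membrane, 0.65, and in both the groups did not overlap. Mrpl4, which lines the tunnel wall, had 0.73. Mrpl22 and Mrpl24, at the tunnel and its exit, had 0.08 and 0.01. Mrpl24 had 961, 485 and 571 normalized counts in the control libraries and 1756, 2960 and 1259 in Che-1 silencing replicates 1, 2 and 3. These groups did not overlap on the spike-in scale, on which Mrpl24 rose by 1.54 (SE 0.57, limma adjusted p = 0.0139), but they overlapped on the relative scale. Of the exon bases of Mrpl24, 26.3% overlap Rrnad1 on the opposite strand.

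Of the other landmarks of the large subunit, Mrpl39 had a relative difference of 0.73 and Mrpl44, a protein with a ribonuclease fold whose human gene is mutated in a cardiomyopathy, 0.54. Both did not overlap between groups. The lowest values among large subunit symbols after Mrpl24 were 0.08 for Mrpl52, 0.08 for Mrpl22 and 0.10 for Mrpl37. In the other direction Mrpl18 and Mrpl54 were followed by Mrpl12 and Mrpl40, as given above.

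In the small subunit, Mrps12, the counterpart of the bacterial decoding centre protein, had 199, 110 and 128 normalized counts in the control libraries and 677, 848 and 364 in Che-1 silencing replicates 1, 2 and 3. The groups did not overlap, and the relative difference was 0.54 (SE 0.17, limma adjusted p = 0.0977). Mrps16 had 0.51 and Mrps34 0.61, both without overlap, and Mrps22 0.56 with overlap. Loss-of-function variants of the human genes of these 3 cause deficient mitochondrial translation. Without Che-1 silencing replicate 3 Mrps12 was at 0.59 and passed (limma adjusted p = 0.0304). Without control replicate 1 it was at 0.58 and did not pass (limma adjusted p = 0.136). Exons of Mrps34 overlap Mapk8ip3 on the opposite strand for 63.4% of their bases and Nme3 on the same strand for 37.0%, so its value is uncertain. The value of Mrpl53 (0.24) is uncertain too, since 88.0% of its exon bases lie in Gm42688 on the same strand.

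Mrps21 and Mrps33 had the highest relative differences after Mrps7 among small subunit symbols. Mrps33, a protein of mitochondrial type, had 231, 156 and 180 normalized counts in the control libraries and 1134, 1633 and 529 in Che-1 silencing replicates 1, 2 and 3. All of the latter stood well above the control range, and the relative difference was 0.88 (SE 0.18, limma adjusted p = 0.073). Mrps21, of bacterial type, had 451, 244 and 298 normalized counts and 2121, 2951 and 735, without overlap, and a relative difference of 0.84. Without Che-1 silencing replicate 3 Mrps33 was at 1.03 and Mrps21 at 1.13, and both passed. Without control replicate 1 they were at 0.82 and 0.88, and neither passed. Mrps27, a pentatricopeptide repeat protein, had a relative difference of 0.72 but overlapping groups.

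Mrps25 was the only member with a relative difference below 0 on the median-gene scale. It had 606, 369 and 433 normalized counts in the control libraries and 1134, 2086 and 918 in Che-1 silencing replicates 1, 2 and 3. On the spike-in scale it rose by 1.49 (SE 0.56, limma adjusted p = 0.0149), and its relative difference was -0.04 (SE 0.12). Of its exon bases 69.8% overlap Nr2c2 on the opposite strand, so its value is uncertain. Mrps5, Mrps10 and Mrps2, all of the small subunit, followed with 0.09, 0.11 and 0.29, and Mrps23 had 0.38.

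The genes descended from bacterial S18 have separate places in the ribosome, Mrps18a in the large subunit and Mrps18b and Mrps18c in the small subunit. Their relative differences were 0.47, 0.37 and 0.63, with overlapping groups in Mrps18a and Mrps18b. Mrps30, whose protein is in the large subunit, had 0.69 without overlap. Mrps36, the dehydrogenase subunit, had 0.62 with overlap, so a gene outside the ribosome that shares the symbol lay within the range of the others. Pseudogenes similar to Mrpl23, Mrpl48 and Mrps36 are annotated, and reads shared with them cannot be placed from these files.

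Levels were compared between single genes per kilobase of the longest principal transcript in GENCODE M21, on the spike-in scale. In the control libraries Mrps21 was highest, at 678 normalized counts per kilobase, followed by Mrpl52 (570) and Mrpl24 (502), and Mrpl47 was lowest, at 37.9. In the silencing-labelled libraries the highest were Mrps21 (3966), Mrpl54 (2852) and Mrpl42 (2559), and the lowest was Mrpl47 (151). The transcript used in marrow may differ from the annotated one, which would alter these levels. Whether transcript use differed between the groups was not tested.

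Many of these genes share a promoter region with a neighbour. In GENCODE M21, 32 of the 76, or 42.1%, had a coding gene on the opposite strand whose 5′ end lay within 1000 bases, against 14.9% of 13114 tested coding genes. Mrpl46 and Mrps11 form such a pair with each other, and had relative differences of 0.70 and 0.59. Of the neighbours outside the set 27 were tested. On the spike-in scale 23 of them rose, against 66.7% of all genes tested. Their median relative difference was 0.22, with 18 above 0, against 50.8% of all genes. The ribosomal protein gene had the higher relative difference in 20 of the 27 pairs. All tested coding genes with such a neighbour had a median of 0.22, and those without it -0.02.

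Some pairs had close values and others did not. Mrpl18 and Tcp1, a chaperonin subunit, had 1.03 and 1.01, Mrpl32 and Psma2, a proteasome subunit, 0.79 and 0.90, and Mrpl36 and Ndufs6, a subunit of respiratory complex I, 0.53 and 0.58. Mrps7 and Gga3 had 1.30 and -0.22, and Mrpl37 and Cyb5rl 0.10 and -0.98. Over the 27 pairs Pearson's r was 0.44 and Spearman's rho 0.52, given as a description, since the points share the same 6 libraries, and since exons of some pairs overlap and could share reads (10.1% of the exon bases of Mrpl18 lie in Tcp1). Members with a neighbour had a median relative difference of 0.57 and those without 0.44.

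**Figure D4:**
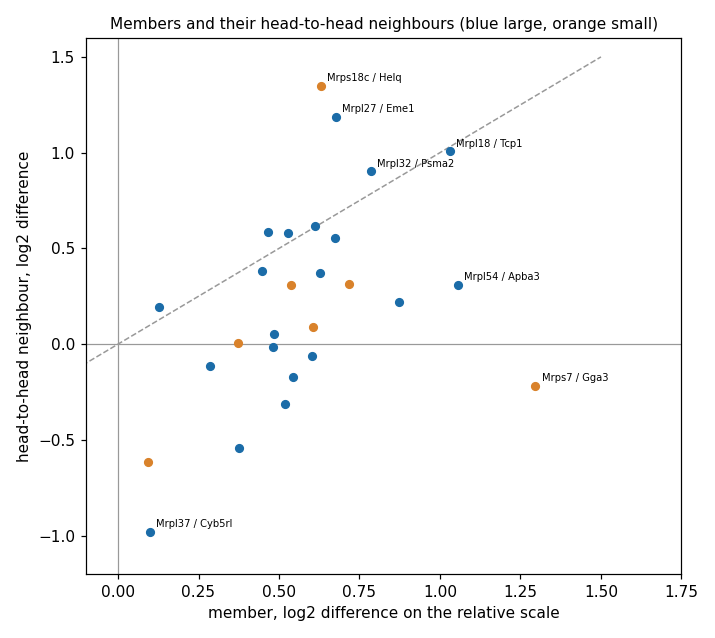
Relative log2 difference of each mitochondrial ribosomal protein gene (x axis) and of its head-to-head neighbour outside the set (y axis), for 27 pairs; the dashed line marks equal values. Points lie below the line in 20 pairs, and the neighbours spread from -0.98 to 1.35.

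Genes with and without the promoter motifs had close medians. The 43 genes with at least 1 of the NRF1, ETS, YY1 and ZNF143 motifs had a median relative difference of 0.53 and the 24 without 0.47. Genes with the ZNF143 motif shown above ranged from 0.01, in Mrpl24, to 0.87, in Mrpl42. Of the regulators, Gabpa, the ETS subunit of GABP, had a relative difference of 0.91 and Yy1 0.55, both without overlap, and both rose on the spike-in scale (2.44 and 2.08). Gabpb1, a partner subunit of GABP, had a relative difference of 0.16. Ppargc1a, a coactivator of mitochondrial biogenesis, had 56.2, 36.2 and 36.6 normalized counts in the control libraries and 0, 9.60 and 41.1 in Che-1 silencing replicates 1, 2 and 3, so the groups overlapped on the spike-in scale. It was called lower there (-2.49, SE 0.72, limma adjusted p = 0.002). The related Pprc1 did not pass on the spike-in scale and had a relative difference of -0.85. In all, 8 of 10 regulators rose on the spike-in scale and 1 fell, against 66.7% and 0.746% of all genes tested. Their median relative difference was -0.10, with 4 of the 10 above 0, against 50.8% of all genes. On the relative scale 2 of the 10 lay above without overlap and 3 below, against 20.5% and 19.7% of all genes tested.

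The remaining proteins of the mitochondrial ribosome, whose symbols do not begin with Mrpl or Mrps, were examined beside those that do. Of 9 listed, 7 were tested, and all rose on the spike-in scale, as did 66.7% of all genes tested. Their median relative difference was 0.53. Of all genes tested, 20.5% lay higher without overlap on the relative scale. Mrp63 (0.78), Chchd1 (0.75), Aurkaip1 (0.65), Gadd45gip1 (0.53) and Ict1 (0.37) did not overlap between groups on the relative scale, whereas Ptcd3 (0.37) and Dap3 (0.24) did.

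Lists of genes that build or use the ribosome had lower relative medians. Of 28 tested assembly factors and ribosomal RNA modifiers 26 rose on the spike-in scale, against 66.7% of all genes tested. Their median relative difference was 0.18. Trmt2b (0.56), Malsu1 (0.53), Noa1 (0.51) and Mterfd2 (0.51) were highest. Gtpbp10, a GTPase of large subunit assembly, had 300, 164 and 161 normalized counts in the control libraries and 170, 283 and 321 in Che-1 silencing replicates 1, 2 and 3, with overlap, and its spike-in scale difference did not pass (limma adjusted p = 0.587). Its relative difference was -1.21. Mettl17, an assembly factor of the small subunit, missed the threshold as well (limma adjusted p = 0.051).

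On the spike-in scale, on which 66.7% of all genes tested rose, all 16 translation factors and partners rose. Their relative median was 0.27, with values from -0.08 for the membrane insertase Oxa1l to 0.68 for Slirp, which stabilizes mitochondrial messenger RNA. The elongation factor Tufm had 0.61. Of 17 mitochondrial aminoacyl-tRNA synthetases 16 rose, with a relative median of 0.09, and Mars2 did not pass (spike-in scale difference 0.69, limma adjusted p = 0.236). All 10 tested genes for copying and transcribing mitochondrial DNA rose, with a relative median of 0.27, among them the polymerase Polg (0.92), the DNA-binding protein Ssbp1 (0.67) and the transcription factor Tfam (0.43). Mitochondrial DNA genes themselves were not analysed here.

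The products of the mitochondrial ribosome work beside nuclear subunits, and these had a relative median of like size. All 70 tested nuclear genes of the respiratory chain and ATP synthase rose on the spike-in scale, against 66.7% of all genes tested. Their relative median was 0.59. In 51 the silencing-labelled libraries lay above without overlap on the relative scale, against 20.5% of all genes. The 56 tested cytosolic ribosomal protein genes rose too, with a relative median of 0.36, but 79 had a row in the table, and those without recovered counts were outside the test. From the control mean, Che-1 silencing replicate 3 lay at 0.35 for the respiratory chain and 0.21 for the cytosolic ribosome, against 0.19 for the mitochondrial ribosomal protein genes and -0.10 for the synthetases. Differences between these lists were not tested.

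**Figure D5:**
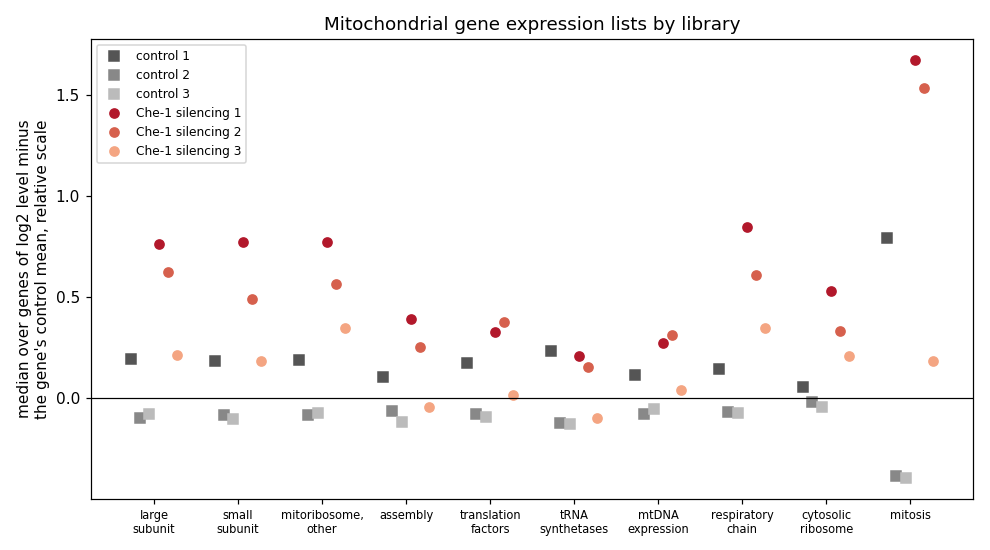
Median over the genes of each list of the log2 level minus the gene's control mean, on the relative scale, for the 3 control libraries (grey squares) and the 3 silencing-labelled libraries (red circles). For both subunits Che-1 silencing replicates 1 and 2 stand highest and replicate 3 is level with control replicate 1, and for mitosis genes control replicate 1 lies above Che-1 silencing replicate 3.

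Transcript length and level also moved with the relative difference across all genes. The members were short, with a median transcript of 1284 bases, against 3038.5 over the tested coding genes, and 52 of the 76 were in the shortest of 4 length classes of equal size. From the shortest to the longest class the median relative difference of all tested coding genes was 0.25, 0.10, -0.04 and -0.18, and that of the members was 0.53, 0.62, 0.46 and 0.37 (52, 8, 12 and 4 genes). From the lowest to the highest of 4 classes of mean level over all 6 libraries, all genes had medians of -0.54, -0.07, 0.14 and 0.25. That mean takes in the silencing-labelled libraries. A gene higher there is therefore placed in a higher class, and the trend with level is partly built in. The members in the lowest 3 classes had 0.33 (1 gene), 0.45 (32 genes) and 0.60 (43 genes), and none were in the highest. In every class that held members, their median exceeded that of all genes, but some classes held few members. The classes of level also share values with the difference itself. The part of length and level in the members' difference was not tested.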

How the data were processed

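Per the labels' protocols, total RNA was depleted of ribosomal RNA and made into stranded libraries. TopHat, Cufflinks, Cuffdiff and HTSeq with build mm9 are named in the submitters' processing notes, with versions not given in the sources used here. The authors deposited raw counts of 92 spike-ins per library and a gene table whose group means (signal) are counts scaled by size factors from the spike-in table, beside their ratio (fold), its log2 value and p-values, per the file headers. The planned tests assumed values per library. Whole counts per library were therefore solved for from the means (relative tolerance 1e-15 plus 0.55 of the last printed digit), which gave 17076 of 17173 genes, or 99.4%, and all 76 members. The size factors that gave whole counts used 70 spike-ins and 2 summary rows of that table, and those from spike-ins alone gave whole counts for 0 of the low means tried. The scale is called the spike-in scale here.

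limma 3.58.1 (R 4.3.3, mean trend, empirical Bayes) was run on log2(normalized count + 1) over 14604 genes with a mean of at least 10, with Benjamini-Hochberg adjustment over all of them. Differences on this scale understate the change of low genes. Prior degrees of freedom were infinite on the spike-in scale and 2.42 on the relative scale. edgeR 4.0.16 and DESeq2 1.42.0 on recovered counts, other pseudocounts, filters, scalings and left-out libraries were alternatives. The scripts were tested on simulated data. A count of a few reads is imprecise, but the members' lowest mean was 147.

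Genes named were structural landmarks, the 4 highest and 4 lowest relative differences per subunit, exceptions to the general call, up to 4 highest and lowest per other list, and Aatf. Head-to-head pairs and genes shown for promoters, length, level or overlap were named beyond this rule after their values were seen. Members and lists were chosen with earlier results of these data known. Gene models were GENCODE M21 and promoters RefSeq (GRCm38.p6). Their coordinates were not mixed with those of mm9.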

Additional observations from a re-analysis of the deposited data

How the results depend on the processing

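The median difference of the 76 genes kept its direction under every alternative run, from 1.66 (without Che-1 silencing replicate 2) to 2.49 (without replicate 3) on the spike-in scale and from 0.34 (library totals) to 0.65 (without Che-1 silencing replicate 3) on the relative scale. Scaling to library totals moved the median of all genes to -0.15, so that the 76 genes stood 0.49 above it. On the spike-in scale 76 genes were called by edgeR, DESeq2, either other pseudocount, either other filter and totals of spike-in reads, when between 57.6% (no minimum mean) and 72.6% (minimum mean of 50) of all genes rose, 67.2% with totals of spike-in reads. The count was 0 with limma without moderation, 49 with control libraries 2 and 3 summed, and between 46 and 76 with each library left out. It was 46 without control replicate 2, 51 without control replicate 3, and 69 without Che-1 silencing replicate 1 or 2. On the relative scale the count was 28 by DESeq2 and between 0 and 51 with each library left out, 51 being without Che-1 silencing replicate 3, and it was 0 under the other alternatives. Large minus small subunit was 0.077 by structure and between 0.021 and 0.096 with each library left out. The Aatf difference did not pass without moderation (1.98, limma adjusted p = 0.0746) or with control libraries 2 and 3 summed (1.79, limma adjusted p = 0.0567), and it was between 1.55 and 2.37 with each library left out. The sign of 7 of the members named here, with relative differences near 0, changed on the relative scale. With library totals Mrpl22 was at -0.086, Mrpl24 at -0.16, Mrpl37 at -0.071, Mrpl52 at -0.091, Mrps10 at -0.062 and Mrps5 at -0.077. Mrpl24 was at -0.024 with a minimum mean of 50, -0.016 by edgeR, -0.019 by DESeq2, -0.012 with TMM factors and -0.029 with control libraries 2 and 3 summed, when Mrpl22 was at -0.0052. Mrps25 was at 0.033 without a minimum mean. With each library left out Mrpl24 lay between -0.047 and 0.088, Mrpl22 between -0.062 and 0.24, Mrps10 between -0.030 and 0.26, Mrps5 between -0.017 and 0.27, Mrpl37 between -0.0050 and 0.29, Mrpl52 between -0.015 and 0.22 and Mrps25 between -0.091 and 0.030. The cause of these changes was not tested.

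Replicate numbers did not pair the libraries (correlations of deviations 0.17, -0.15 and 0.18, and 1 of 3 numbers best matched by its own). With the replicate block 74 of the 76 genes were called on the spike-in scale, without Mrpl24 and Mrps25, and 0 on the relative scale, and 6719 of all genes rose in place of 9745.

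The libraries may not come from separate mice, group and sex cannot be told apart, and no loss of the targeted gene was measured. The deposited size factors set the spike-in scale, and markers of several cell types differed between libraries, whereas cell composition was not measured. Reads of the 76 genes ran from 73 (Mrps6) to 2730 per library, a counting error of 0.17 to 0.028 log2 units (median 0.067). The relative difference of Mrps6 had an SE of 0.19.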
